A study of Caenorhabditis elegans with 6 samples.

Results

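The astacin metalloproteases of the nematode Caenorhabditis elegans were examined in whole worms that had received high doses of X-rays. The members were the genes named nas (nematode astacin) followed by a number, 36 of the 45292 genes in the deposited table. The groups were worms given 0, 200 or 400 gray (Gy, a measure of absorbed radiation), with 2 RNA sequencing libraries each. The animals were age-matched young adult hermaphrodites, irradiated 24 h after the L4 larval stage, with about 1000 worms named for the irradiation. The sources used here give neither the strain nor the time between irradiation and harvest. They also do not say whether replicate libraries stem from separate cultures, so the p-values below measure a spread between libraries that may be technical.

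Astacins are secreted or membrane-bound proteases that hold a zinc ion in the active site and are made as inactive precursors. They cut extracellular substrates such as procollagens, cuticle components and food proteins. The worm has an unusually large set of them. In C. elegans, nas-36 and nas-37 are needed to shed the old cuticle at each moult, nas-6 and nas-7 shape the grinder of the pharynx, the feeding organ, and nas-38 acts on the quiescence that accompanies moulting. The gene nas-39 encodes the worm relative of tolloid and of the vertebrate procollagen protease BMP1. Moults end before adulthood, but adult hermaphrodites carry embryos, and whole-worm RNA holds that of both. In such bulk samples, fewer cells of a type and less RNA per cell cannot be told apart.

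The libraries held from 9554479 to 12315765 gene counts. The nas genes together took from 0.0113% to 0.0360% of them, so most members rested on few reads. Of the 36 members, 20 had enough counts to be tested, among 14417 genes tested in all. Fold changes over all genes depended on coding length in these libraries. Their Spearman correlation with length across genes was -0.53 for 200 Gy against 0 Gy, 0.39 for 400 Gy against 0 Gy and 0.69 for 400 Gy against 200 Gy, given as a description with no p. The tested nas genes are long, with a median coding length of 1690.5 bases against 1086 bases over all tested genes. Values are therefore also given length-corrected where named, from a fit that removed a loess trend on length from each library. That trend was fitted in 2 ways, with robust weights and with R's default, and the default was tried after the calls of the robust one had been seen. Length-corrected values are those of the robust trend unless the default is named.

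**Figure D1:**
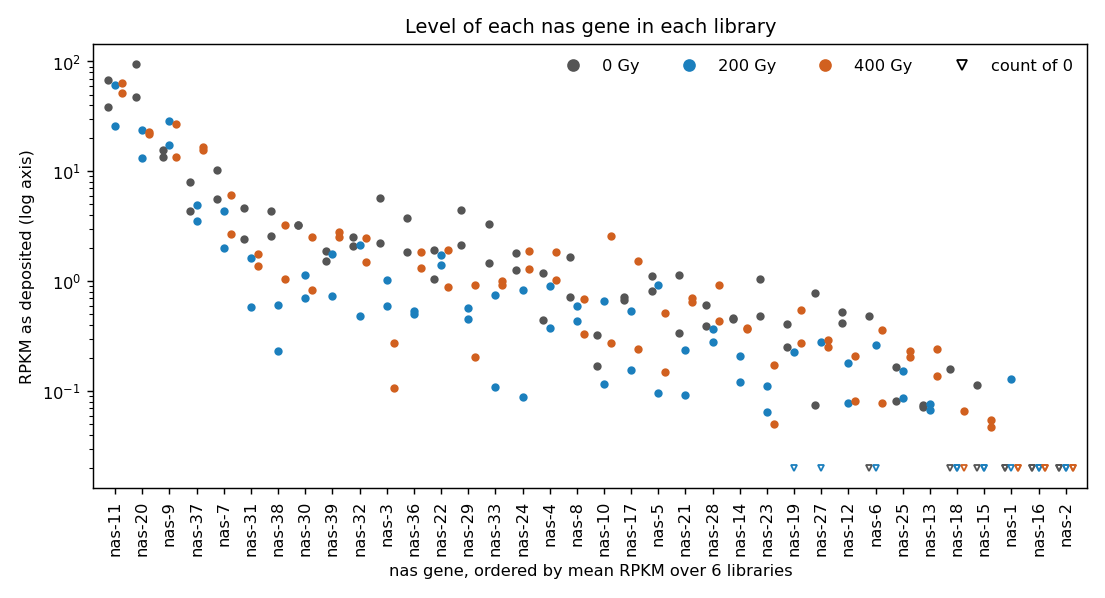
Level of each of the 36 nas genes as deposited RPKM (reads per kilobase of coding length per 1e+06 counts, log axis), ordered by the mean over the 6 libraries, with 1 point per library coloured by dose and open triangles at the foot for a count of 0. Of the genes, 3 had means of at least 10 RPKM, 13 lay from 1 to 10 RPKM, and 20 lay under 1 RPKM.

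Levels were compared between genes per length, as deposited RPKM. The most abundant member was nas-11 on chromosome X (6713578 to 6716320, forward strand, WBcel235 build), with 38.7 and 67.8 RPKM at 0 Gy, 26.05 and 60.8 RPKM at 200 Gy and 51.3 and 63.7 RPKM at 400 Gy. Second came nas-20 on chromosome V (11470966 to 11472295, reverse strand), with 47.7 and 94.5 RPKM at 0 Gy, 13.3 and 23.9 RPKM at 200 Gy and 21.8 and 23.1 RPKM at 400 Gy. Their order differed by dose: the 0 Gy ranges of nas-20 and nas-11 overlapped, while at 200 Gy and 400 Gy every library of nas-20 lay below every library of nas-11. Next was nas-9 on chromosome V (4836037 to 4839919, reverse strand), with 13.5 and 15.6 RPKM at 0 Gy, 17.3 and 28.6 RPKM at 200 Gy and 13.6 and 26.8 RPKM at 400 Gy. Its libraries overlapped those of nas-20 at 200 Gy and at 400 Gy and lay below them at 0 Gy. The moulting protease gene nas-37 and the pharyngeal nas-7 followed with means of 8.87 and 5.18 RPKM over the 6 libraries. The 2 highest genes made up from 52.3% to 66.6% of the summed RPKM of the family in a library.

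At the other end, nas-2 and nas-16 had no count in any library, where a count of 0 allows up to 3 counts in a library. The genes nas-1, nas-15 and nas-18 had 1, 4 and 3 counts summed over all libraries. The pharyngeal gene nas-6, on chromosome IV (17486982 to 17490497, reverse strand), had counts of 0 and 5 in the 0 Gy libraries, 0 and 3 in those of 200 Gy and 1 and 4 in those of 400 Gy. That is too few to test, so no change of nas-6 was detectable at this depth. By place, 13 members lie on chromosome V, 8 on X, 5 on II, 4 on IV and 3 each on I and III. On chromosome V, 4 of them (nas-16, nas-18, nas-17 and nas-19) lie within gaps of at most 2302 bases of each other. Next along the chromosome come nas-20, nas-21 and nas-22, with gaps of 277 and 811 bases. In the cluster of nas-16 to nas-19 only nas-17 was tested, and its 6 libraries held from 2 to 22 counts.

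At each dose, replicates of most tested nas genes differed in 1 direction. After TMM scaling, which sets libraries level by a trimmed mean of their log ratios, the second library of the dose was the higher one for 16 of the 20 tested members at 0 Gy, 17 at 200 Gy and 15 at 400 Gy. Over all tested genes this held for 55.7%, 53.1% and 53.0% at those doses. Ribosomal RNA also took more of the second library at each dose, where its shares were 1.09% and 4.32% in the 0 Gy libraries, 1.19% and 1.72% in the 200 Gy libraries and 0.696% and 9.26% in the 400 Gy libraries. The 14 oocyte and germline markers went the other way, with summed CPM (counts per 1e+06 scaled counts) of 9832 and 3757 in the 0 Gy libraries, 11557 and 2728 in those of 200 Gy and 18350.2 and 8824 in those of 400 Gy. The part of either in the levels of the nas genes was not tested.

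Worms given 200 Gy were set against those given 0 Gy to ask what the lower dose changed. Among the nas genes, nas-20 and nas-38 fell and none rose. By the quasi-likelihood test of edgeR, adjusted by Benjamini-Hochberg over all genes with a threshold of 0.05, that is 2 of 20 tested members lower, where 8.71% of all tested genes were lower, and 0 of 20 higher, where 7.03% were higher (15.7% in either direction). The share of members that fell was near that of all genes. The median log2 fold change was -0.66 over the members and 0.099 over all tested genes, and -0.50 and 0.066 length-corrected. The libraries of 200 Gy lay below both 0 Gy libraries for 10 of the 20 members, against 29.9% of all tested genes, and above them for nas-9 and nas-22, against 33.3%. Such counts of libraries that do not overlap, and their shares, were not length-corrected, here and in the comparisons below. Without the correction 7 members stood at an unadjusted p under 0.05 in edgeR, where 37.2% of all tested genes did. Length-corrected, 6 members stood there, and the share of all genes is not given. Length-corrected, 0 members passed after adjustment, where 1.60% of all genes were higher and 1.67% lower. With the default trend 1 member passed, nas-9, which was higher, where 2.19% of all genes were higher and 2.41% lower. The DESeq2 Wald test called 4 members, all lower, where it called 23.1% of all genes.

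**Figure D2:**
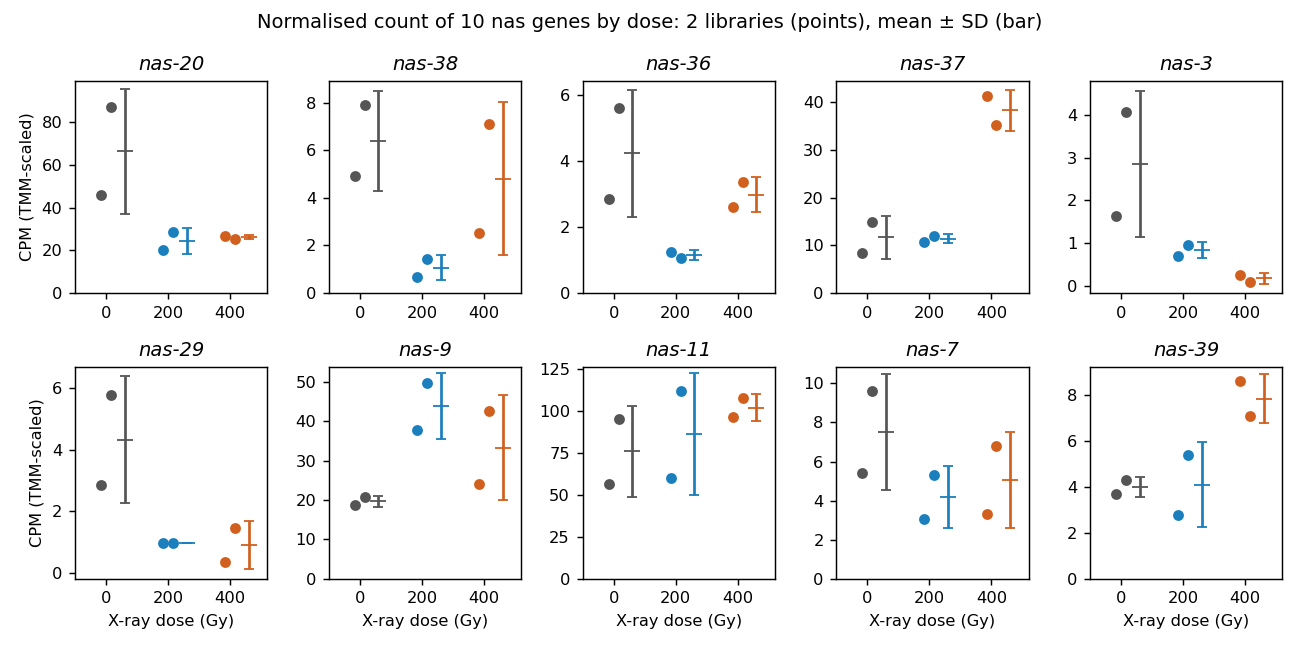
TMM-scaled CPM of 10 nas genes (vertical axes, each from 0) by X-ray dose in Gy, with 1 point for each of the 2 libraries and, beside them, the mean ± SD. The 200 Gy libraries of nas-38 lie below all others at 0.697 and 1.44 CPM, and the 400 Gy libraries of nas-37 lie above all others at 41.3 and 35.1 CPM.

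At 200 Gy nas-20 had 20.2 and 28.9 CPM, against 45.8 and 87.0 CPM at 0 Gy. At 400 Gy it had 26.8 and 25.6 CPM. Both irradiated groups lay below both 0 Gy libraries, and the 0 Gy libraries lay further apart than those of the other doses. The log2 fold change at 200 Gy was -1.43 ± 0.39 (SE), with adjusted p = 0.0455 in edgeR. At 400 Gy against 0 Gy it was -1.34 ± 0.39 and did not pass, with adjusted p = 0.117 in edgeR. Between the irradiated doses the log2 fold change of nas-20 for 400 Gy against 200 Gy was 0.091 ± 0.39, smaller than the SE. Its coding length of 1140 bases is close to the median of all tested genes, and the length-corrected log2 fold change at 200 Gy was -1.49, with adjusted p = 0.0566 in edgeR (0.0567 with the default trend). The call was lost without the first or second 400 Gy library (edgeR adjusted p = 0.0707 and 0.0539). Without the first or second 0 Gy library 0 of all genes passed, and the log2 fold change of nas-20 was -1.82 and -0.92. Without the first or second 200 Gy library the edgeR adjusted p for 400 Gy against 0 Gy was 0.0184 and 0.0123. Over 17 alternatives the adjusted p for 200 Gy ran from 0.00486 to 0.271.

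The nearest neighbours of nas-20 are also nas genes, both low in these worms. The gene nas-21 starts 277 bases away and runs in the opposite direction. Its counts were 1 and 3 at 200 Gy and 10 and 8 at 400 Gy, against 4 and 13 at 0 Gy, too few to test. Further along, nas-22 had 2.09 and 2.02 CPM at 200 Gy and 1.05 and 2.09 CPM at 400 Gy, against 0.983 and 1.71 CPM at 0 Gy. Its 200 Gy libraries lay above those of 0 Gy, the opposite of nas-20, with a log2 fold change of 0.61 ± 0.61 that did not pass (edgeR adjusted p = 0.498) and was 0.53 length-corrected.

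Of the genes tied to moulting, nas-38 (chromosome X, 558190 to 563629, forward strand) fell at 200 Gy. It had 0.697 and 1.44 CPM at 200 Gy, from counts of 5 and 15, against 4.91 and 7.89 CPM at 0 Gy. At 400 Gy it had 2.54 and 7.08 CPM. The 200 Gy libraries did not overlap those of either other dose, and the 400 Gy libraries spanned a wider range than those of 0 Gy. For 200 Gy against 0 Gy the log2 fold change was -2.53 ± 0.69, with adjusted p = 0.0449 in edgeR. Length-corrected it was -1.62, with adjusted p = 0.184 (0.156 with the default trend). Without the first or second 0 Gy library, where 0 of all genes passed in edgeR, the log2 fold change was -2.84 and -2.18.

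The related gene nas-36 (chromosome I) had 1.26 and 1.06 CPM at 200 Gy, against 2.87 and 5.61 CPM at 0 Gy. At 400 Gy it had 2.63 and 3.36 CPM. Its 200 Gy libraries, like those of nas-38, lay below all libraries of the other doses, on counts of 9 and 11. The log2 fold change of -1.87 ± 0.57 for 200 Gy against 0 Gy did not pass (edgeR adjusted p = 0.0588), and length-corrected it was -1.29 with adjusted p = 0.179. With DESeq2's Wald test the adjusted p was 0.0318. Without the first 200 Gy library the edgeR adjusted p was 0.0400.

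The comparison of 400 Gy with 200 Gy asked how the 2 doses differed. It uses the same 200 Gy libraries as the comparison above, so its values are not independent of it. Here nas-37 and nas-38 rose and none fell: 2 of 20 members were called, both higher, where 31.2% of all tested genes were called in either direction, 2157 higher and 2338 (16.2%) lower. The share of members called lay below that of all genes. The median log2 fold change was 0.53 over the members and -0.10 over all tested genes, and the members' median turned to -0.11 length-corrected and to -0.18 with the default trend. The 400 Gy libraries lay above both 200 Gy libraries for 7 of 20 members, against 31.1% of all tested genes, and below them for nas-3, against 34.6%. Length-corrected, 0 members passed with either trend, where 2.03% of all genes were higher and 2.29% lower, or 2.07% and 2.91% with the default. With each trend 1 member had an unadjusted p under 0.05, and the share of all genes there is not given. Without the correction 4 members had such a p in edgeR, where 44.2% of all tested genes did.

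The moulting protease gene nas-37 (chromosome X, 9945084 to 9949059, reverse strand) had 41.3 and 35.1 CPM at 400 Gy, against 10.7 and 12.04 CPM at 200 Gy. At 0 Gy it had 8.43 and 14.9 CPM. The 400 Gy libraries stood above all others, while those of 200 Gy lay within the range of 0 Gy. For 400 Gy against 200 Gy the log2 fold change was 1.75 ± 0.38, with adjusted p = 0.0118 in edgeR. The value for 400 Gy against 0 Gy was 1.71 ± 0.37 and did not pass (adjusted p = 0.0814 in edgeR). DESeq2's Wald test gave 0.00691 there, and the edgeR adjusted p was 0.00553 and 0.00279 without the first or second 200 Gy library. Its coding length is 2298 bases, and length-corrected the value for 400 Gy against 200 Gy was 0.37 with adjusted p = 0.609 (0.596 with the default trend). Length-corrected, the value for 400 Gy against 0 Gy was 1.25, with adjusted p = 0.147. Without the first 400 Gy library the call between the irradiated doses was lost (edgeR adjusted p = 0.0684). An exon of nas-37 overlaps 32 bases of C17G1.5 on the other strand. The libraries were built with a TruSeq RNA kit, and whether the reads kept their strand was not tested.

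For nas-38 the value for 400 Gy against 200 Gy was 2.12 ± 0.69, with adjusted p = 0.0483 in edgeR. Length-corrected it was 0.81, with adjusted p = 0.512. The call was lost without the first or second 0 Gy library (edgeR adjusted p = 0.0788 and 0.0816) and without the second 400 Gy library (0.186), which held more than the first. At 400 Gy against 0 Gy the log2 fold change was -0.41 ± 0.61, with adjusted p = 0.718. For nas-36 the value for 400 Gy against 200 Gy was 1.37 ± 0.58 and did not pass (edgeR adjusted p = 0.104), and length-corrected it was 0.55 with adjusted p = 0.585.

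**Figure D3:**
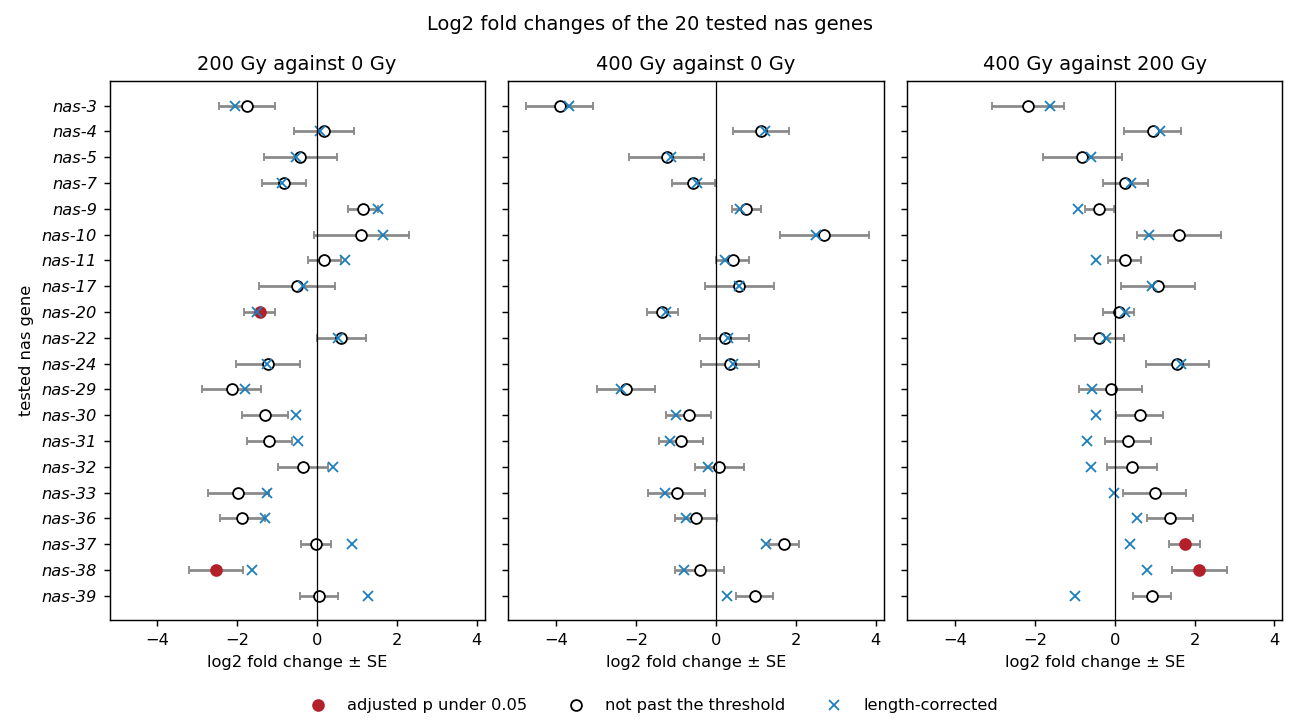
Log2 fold changes ± SE of the 20 tested nas genes in the 3 comparisons, with filled circles for an adjusted p under 0.05 in edgeR, open circles for the rest and crosses for the length-corrected values. In the comparison of 400 Gy with 200 Gy the crosses of nas-37 and nas-38 lie at 0.37 and 0.81, against 1.75 and 2.12 without the correction.

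Worms given 400 Gy were set against those given 0 Gy to ask what the higher dose changed. No nas gene passed in edgeR: 0 of 20 were higher, where 0.0416% of all tested genes were higher, and 0 of 20 lower, where 0.00694% were lower (0.0486% in either direction), so few genes of any kind passed. The median log2 fold change was -0.16 over the members and -0.035 over all tested genes. The 400 Gy libraries lay above both 0 Gy libraries for 6 of 20 members, against 28.1% of all tested genes, and below them for 7, against 31.1%. At an unadjusted p under 0.05 stood 5 members: nas-3, nas-20 and nas-29 with lower and nas-10 and nas-37 with higher values at 400 Gy. That is near the share of all tested genes, of which 22.5% stood there. DESeq2's Wald test called nas-3 and nas-37, and 9.38% of all genes. Length-corrected, 0 members passed, where 0.00694% of all genes were higher and 0.00694% lower. With the default trend 1 passed, nas-3, which was lower, where 1.23% of all genes were higher and 0.603% lower. Of these genes, nas-3, nas-29 and nas-10 were chosen for description after their values had been seen.

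The member with the lowest fold change at 400 Gy was nas-3 (chromosome V, 9478213 to 9479410, forward strand). Its counts were 5 and 10 at 200 Gy and 3 and 1 at 400 Gy, against 20 and 50 at 0 Gy. In CPM these were 0.697 and 0.963 at 200 Gy and 0.263 and 0.0908 at 400 Gy, against 1.64 and 4.07 at 0 Gy. No 2 of the 3 doses overlapped, and the level was lowest at 400 Gy. The log2 fold change for 400 Gy against 0 Gy was -3.92 ± 0.83, with adjusted p = 0.0790 in edgeR. Length-corrected it was -3.68 with adjusted p = 0.0688, and with the default trend -3.73 with adjusted p = 0.0473. The edgeR adjusted p was 0.00489 and 0.00306 without the first or second 200 Gy library. Without any 1 library of 0 Gy or 400 Gy 0 of all genes passed, and the log2 fold change of nas-3 ran from -4.81 to -3.14. At 200 Gy against 0 Gy the value was -1.75 ± 0.71 (adjusted p = 0.113), and at 400 Gy against 200 Gy -2.17 ± 0.90 (adjusted p = 0.101).

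At both doses nas-29 (chromosome II, 5138696 to 5141809, reverse strand) lay below 0 Gy. It had 0.976 and 0.963 CPM at 200 Gy and 0.350 and 1.45 CPM at 400 Gy, against 2.87 and 5.77 CPM at 0 Gy. Neither irradiated group overlapped 0 Gy. The log2 fold changes against 0 Gy were -2.14 ± 0.75 at 200 Gy and -2.25 ± 0.74 at 400 Gy, with edgeR adjusted p = 0.0797 and 0.140. These 2 comparisons share the 0 Gy libraries. Length-corrected, the values were -1.82 and -2.38, with adjusted p = 0.144 and 0.117. Of 17 alternatives, 4 called nas-29 at 200 Gy against 0 Gy, among them DESeq2's Wald test with adjusted p = 0.0342, and 6 called it at 400 Gy against 0 Gy. At 400 Gy the edgeR adjusted p was 0.0294 and 0.0218 without the first or second 200 Gy library. Its log2 fold change there was -3.54 without the second 400 Gy library and -1.57 without the first, in fits where 0 of all genes passed.

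The value of nas-10 rested on 1 library. It had 0.525 and 4.45 CPM at 400 Gy, from counts of 6 and 49, against 0.491 and 0.244 CPM at 0 Gy. The second 400 Gy library stood far above the rest. The log2 fold change was 2.72 ± 1.11 (edgeR adjusted p = 0.200), and without that library 0.54. Length-corrected it was 2.52, with adjusted p = 0.255.

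Of the other abundant or annotated members, nas-9 had 37.9 and 49.8 CPM at 200 Gy, against 18.7 and 20.7 CPM at 0 Gy. At 400 Gy it had 24.0 and 42.8 CPM. Both irradiated groups lay above 0 Gy and overlapped each other. The log2 fold change for 200 Gy against 0 Gy was 1.16 ± 0.37 and did not pass (edgeR adjusted p = 0.0646). Length-corrected it was 1.54, with adjusted p = 0.0579 for the robust trend and 0.0496 for the default one, on either side of the threshold. Without the first 200 Gy library the edgeR adjusted p was 0.0468.

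The most abundant gene, nas-11, had 60.4 and 112.1 CPM at 200 Gy and 96.3 and 108.0 CPM at 400 Gy, against 56.7 and 95.3 CPM at 0 Gy. At 200 Gy the libraries overlapped those of 0 Gy, and at 400 Gy they lay just above. Log2 fold changes against 0 Gy were 0.18 ± 0.41 at 200 Gy and 0.43 ± 0.41 at 400 Gy, with edgeR adjusted p = 0.776 and 0.563. Length-corrected they were 0.69 and 0.23.

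The pharyngeal gene nas-7 (chromosome II, 7400725 to 7402707, reverse strand) had 3.07 and 5.30 CPM at 200 Gy and 3.33 and 6.81 CPM at 400 Gy, against 5.40 and 9.595 CPM at 0 Gy. The 200 Gy libraries lay just below those of 0 Gy, and the 400 Gy libraries overlapped them. Its log2 fold changes against 0 Gy were -0.83 ± 0.55 and -0.57 ± 0.54, with edgeR adjusted p = 0.303 and 0.560. Length-corrected they were -0.89 and -0.49.

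The tolloid relative nas-39 (chromosome X, 16457459 to 16471150, forward strand) had 2.79 and 5.39 CPM at 200 Gy and 8.58 and 7.08 CPM at 400 Gy, against 3.685 and 4.31 CPM at 0 Gy. Its 400 Gy libraries lay above all others. The log2 fold change for 400 Gy against 0 Gy was 0.97 ± 0.47 (edgeR adjusted p = 0.259), and 0.29 length-corrected (adjusted p = 0.837). For 200 Gy against 0 Gy a value of 0.047 became 1.28 length-corrected. Between the irradiated doses it was 0.92 ± 0.47 (adjusted p = 0.169) and turned to -0.995 length-corrected. This gene has the longest coding sequence of the family, 2856 bases. An exon of nas-39 also overlaps an exon of F38E9.1 by 276 bases on the same strand, the longest such overlap. F38E9.1 had a higher mean level of 11.8 RPKM, so the counts of nas-39 are uncertain.

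**Figure D4:**
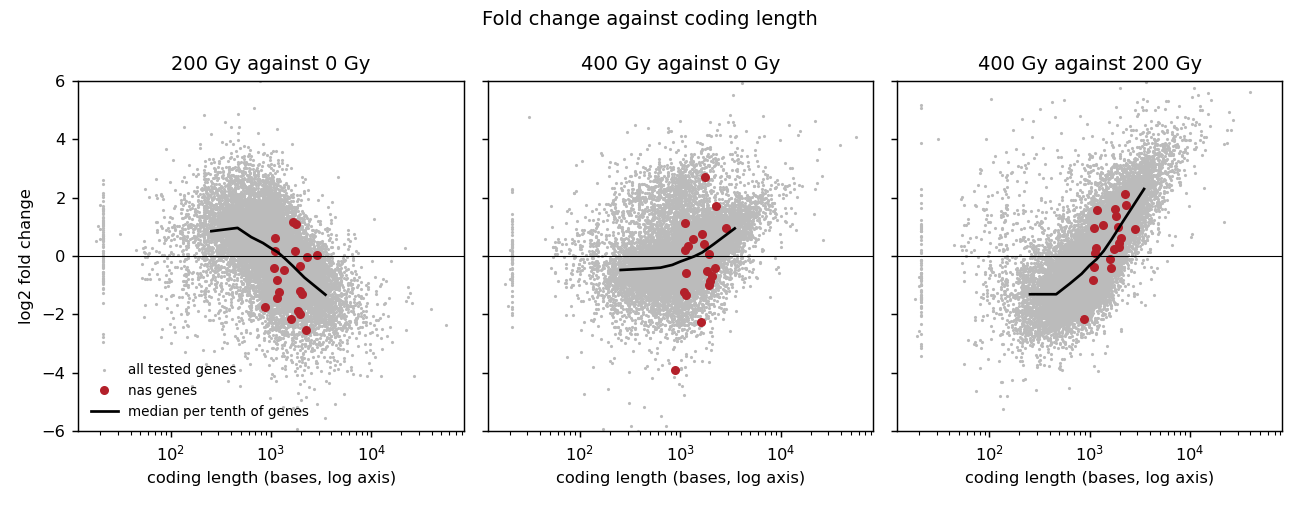
Log2 fold change against coding length in bases (log axis) for all tested genes (grey points), the tested nas genes (red points) and the median in each of 10 equal groups of genes by length (black line), in the 3 comparisons. The line falls with length for 200 Gy against 0 Gy and rises with it in the other comparisons, and the vertical axis leaves out 5, 3 and 17 genes beyond ±6 in panel order.

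The numbers of the nas genes follow groups of related sequence and domain layout, which allows a description by number. From nas-33 to nas-38, the range that holds the moulting proteases, 4 genes bear nas names here: nas-33, nas-36, nas-37 and nas-38. Astacin genes with other names are left out of this range, so it need not hold the whole sequence group. All 4 had negative log2 fold changes for 200 Gy against 0 Gy (median -1.92), but that of nas-37 was -0.032 ± 0.37, smaller than its SE. For 400 Gy against 200 Gy all 4 were positive (median 1.56). But at 200 Gy nas-37 was at 0.88 length-corrected and 0.062 with upper-quartile scaling. Between the irradiated doses nas-33 was at -0.011 length-corrected. These 2 comparisons share the 200 Gy libraries. Length-corrected, the medians were -1.27 and 0.46. Summed over these genes, the level was 12.97 and 16.1 CPM at 200 Gy and 48.4 and 47.5 CPM at 400 Gy, against 18.6 and 33.6 CPM at 0 Gy. Most of it was nas-37 in the libraries of 200 Gy and 400 Gy. From nas-16 to nas-30, 14 genes of which 6 were tested, the summed level was 26.6 and 38.1 CPM at 200 Gy and 35.6 and 41.3 CPM at 400 Gy, against 60.1 and 106 CPM at 0 Gy, and most of it was nas-20. The family as a whole had summed levels of 149.9 and 240.3 CPM at 200 Gy and 226 and 271 CPM at 400 Gy, against 176 and 291 CPM at 0 Gy. Those 3 ranges overlap.

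Astacin genes with other names gave no call. The procollagen protease gene dpy-31 had log2 fold changes of -0.12 ± 0.35 at 200 Gy and 0.39 ± 0.35 at 400 Gy against 0 Gy. The hatching enzyme gene hch-1 had 0.279 and 1.25 CPM at 200 Gy and 2.72 and 0.817 CPM at 400 Gy, against 0.819 and 0.894 CPM at 0 Gy. The tolloid-like toh-1 had 22.9 and 18.8 CPM at 200 Gy and 22.1 and 28.96 CPM at 400 Gy, against 13.7 and 16.7 CPM at 0 Gy (log2 fold changes 0.46 ± 0.33 and 0.75 ± 0.33). Length-corrected, dpy-31 was at 0.42 and 0.17, and toh-1 at 0.50 and 0.81. The deposited table holds no gene under the name toh-2. Both substrates known for the protease DPY-31 are collagens. For sqt-3 the levels were 86.2 and 51.1 CPM at 200 Gy and 36.7 and 111 CPM at 400 Gy, against 217 and 235.4 CPM at 0 Gy. Its values of -1.72 ± 0.54 and -1.61 ± 0.54 did not pass (edgeR adjusted p = 0.0626 and 0.145), nor did those of -1.98 and -1.44 length-corrected (0.0600 and 0.163). For dpy-17 they were 0.63 ± 0.40 and 0.89 ± 0.40, with edgeR adjusted p = 0.282 and 0.231.

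Genes of moulting outside the family were also called. At 200 Gy against 0 Gy 14 of 30 tested moulting genes fell and 0 rose, where 8.71% of all genes fell and 7.03% rose, with a median log2 fold change of -1.31 against 0.099 over all genes. The zona pellucida domain gene noah-1 was at -3.95 ± 0.51, and the fibrillin-like fbn-1 at -4.12 ± 0.61. Length-corrected they were at -2.69 and -2.19, with edgeR adjusted p = 0.0415 and 0.0745. At 400 Gy against 200 Gy 13 of the 30 rose and 3 fell (median 1.22), where 31.2% of all genes were called in either direction. The lipoprotein receptor gene lrp-1 rose by 3.64 ± 0.54 and was at -0.80 length-corrected. Length-corrected, 2 fell and 0 rose for 200 Gy against 0 Gy, and 0 rose and 1 fell for 400 Gy against 200 Gy, where the shares of all genes were those given above for the nas genes. With the default trend the first pair was 7 and 1, and the second 0 and 0. Of 21 genes of cuticle collagen and its processing 4 fell at 200 Gy and 0 rose, among them dpy-10 at -2.76 ± 0.35 (-2.83 length-corrected). Length-corrected, 4 fell, where 1.67% of all genes did.

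Other metalloprotease genes, of the ADAM, ADAMTS, neprilysin and matrix types, showed 3 of 15 lower and 0 higher at 200 Gy against 0 Gy, again where 8.71% of all genes were lower. At 400 Gy against 200 Gy 11 were higher and 1 lower, where 31.2% of all genes were called, and the ADAMTS gene gon-1 led at 4.41 ± 0.45. The median there was 1.69, and length-corrected it was -0.041, with gon-1 at 0.87. Length-corrected, 0 of them passed in either comparison, and with the default trend 1 was lower at 400 Gy against 200 Gy. Protease inhibitor genes gave 2 of 12 higher and 1 lower at 200 Gy against 0 Gy, and 2 higher and 6 lower at 400 Gy against 200 Gy, with 0 past the threshold in either length-corrected. Of 16 tested digestive protease genes of the cathepsin types 2 rose at 200 Gy against 0 Gy, cpr-3 and cpr-5, and 3 fell at 400 Gy against 200 Gy, with asp-4 at -2.16 ± 0.40 (-2.28 length-corrected). Among all genes 7.03% rose in the first of these comparisons and 16.2% fell in the second. Length-corrected, these digestive counts were 0 and 2, where 1.60% of all genes were higher in the first comparison and 2.29% lower in the second. At 400 Gy against 0 Gy 0 members of these lists passed in edgeR without the correction or with the robust trend. With the default trend 4 genes of cuticle collagen and its processing, 1 moulting gene and 1 digestive protease gene were lower there.

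Markers of embryos and tissues moved between the doses as well. Over all tested genes 8.71% were lower and 7.03% higher at 200 Gy against 0 Gy. Length-corrected, 1.67% were lower there and 1.60% higher. At 400 Gy against 0 Gy 0.00694% of all tested genes were lower and 0.0416% higher. The early embryo markers summed to 13.1 and 15.7 CPM at 200 Gy and 37.3 and 37.9 CPM at 400 Gy, against 72.5 and 107.8 CPM at 0 Gy. Of the 7 tested, 5 fell at 200 Gy against 0 Gy, and 4 length-corrected, with vet-2 at -3.16 ± 0.39 (-2.25 length-corrected), while med-1 and hlh-27 had no count. Their sums were highest at 0 Gy and lowest at 200 Gy. The mean CPM of 7 of the 20 tested nas genes shared this order, against 13.5% of all tested genes. These were nas-7, nas-20, nas-30, nas-31, nas-33, nas-36 and nas-38. Length-corrected, the values for 400 Gy against 200 Gy turned to -0.47, -0.69 and -0.011 for nas-30, nas-31 and nas-33. For nas-7, nas-20, nas-36 and nas-38 they stayed positive. The share of all genes in this order is not given length-corrected. The hypodermis markers, of the tissue that makes the cuticle, gave 5 of 12 lower and 1 higher at 200 Gy against 0 Gy, and their sums, in which the adult collagen gene col-19 was the highest, were 4182 and 3972 CPM at 200 Gy and 2773 and 2116 CPM at 400 Gy, against 1278 and 1529 CPM at 0 Gy. Body muscle markers summed to 8760.2 and 6215 CPM at 200 Gy and 8813 and 8853 CPM at 400 Gy, against 2618 and 3686 CPM at 0 Gy, with 3 of 10 higher at 200 Gy. Of 10 intestine markers 0 passed against 0 Gy at either dose in edgeR, and of 10 neuron markers 1 was higher and 1 lower at 200 Gy. Pharynx markers summed to 67.8 and 141 CPM at 200 Gy and 216 and 224 CPM at 400 Gy, against 49.8 and 46.3 CPM at 0 Gy, with 3 of 9 tested higher at 200 Gy and 2 of 9 at 400 Gy, and abu-6 had no count. The pharyngeal gene nas-7 did not follow the order of these sums. Sperm markers summed to 32.5 and 93.9 CPM at 200 Gy and 74.5 and 164 CPM at 400 Gy, against 22.5 and 21.5 CPM at 0 Gy. Of the 11 tested, 1 rose at 200 Gy against 0 Gy and 0 passed at 400 Gy against 0 Gy. Length-corrected, 2 hypodermis markers were lower and 1 higher at 200 Gy against 0 Gy, and 2 body muscle and 2 pharynx markers were higher. There 1 neuron marker was lower, and 0 sperm markers passed. At 400 Gy against 0 Gy 0 markers of these tissues passed with the robust trend. With the default trend 4 pharynx and 3 sperm markers were higher and 2 hypodermis markers lower, where 1.23% and 0.603% of all genes were. The part of these tissues in the levels of the nas genes was not tested.

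Among the remaining tested members (nas-4, nas-5, nas-17, nas-24 and nas-30 to nas-33), none passed in any comparison in the edgeR fit over all 6 libraries with dose as its only term. In fits without the second 200 Gy library nas-33 fell at 200 Gy against 0 Gy and nas-24 rose at 400 Gy against 200 Gy. Their log2 fold changes for 200 Gy against 0 Gy ran from -1.97 for nas-33 to 0.17 for nas-4. At 400 Gy against 0 Gy they ran from -1.23 for nas-5 to 1.12 for nas-4, and at 400 Gy against 200 Gy from -0.82 for nas-5 to 1.57 for nas-24. Length-corrected, the ranges were -1.26 to 0.40, -1.27 to 1.22 and -0.69 to 1.66. For nas-24 the first 200 Gy library held 1 count. The counts of nas-4 are uncertain, since an exon of it overlaps an exon of C05D11.5 by 435 bases on the same strand, the longest such overlap. In all, the exons of 14 of the 36 members overlap another annotated gene, on the opposite strand for 11 and on the same strand for 3.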

How the data were processed

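Whole-worm RNA of 3 X-ray doses was sequenced in 2 libraries each. Per the labels' protocols, Trizol was used to extract RNA and a TruSeq RNA kit to build the libraries. Per the submitters' processing notes, the tools were TopHat2 2.0.13 and bcl2fastq, with the WBcel235 build. The sources used here name no read counter, annotation release or filter. The authors deposited 1 table with raw read counts and RPKM values per gene and library. Each deposited RPKM value equals count over length and library total within 0.1%, so the tests used the counts. The deposited lengths are called coding lengths: 34 of the 36 nas lengths are multiples of 3. Of them, 26 equal a coding sequence of the Ensembl annotation with its stop codon. Over all tested genes the lengths also include those of non-coding RNA, such as 21ur-10249 with 21 bases. Gene positions are those of the deposited table, and exon overlaps come from the Ensembl annotation of that build.

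Counts were filtered with filterByExpr, scaled by TMM (factors 0.751 to 1.24) and tested by quasi-likelihood in edgeR 4.0.16 (R 4.3.3), in 1 model over all 6 libraries with 3 residual degrees of freedom and no other term. Benjamini-Hochberg adjustment ran over 14417 genes, with a threshold of 0.05. A standard error is the absolute log2 fold change over the square root of F, and CPM are TMM-scaled. Over genes, the chi-square per degree of freedom between replicates was 60.3, 95.2 and 113 at 0, 200 and 400 Gy, so no library was a copy. Steps were tested on simulated data.

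The length correction fitted, per library, log2 CPM deviations (prior count 2) on log2 coding length by loess with span 0.3 and removed the fit. The robust (symmetric) fit was run first. R's default fit was then tried, after the robust calls had been seen, in an attempt to come nearer to an earlier count of length-corrected calls over all genes, which it did not match. Both are given. Other alternatives were upper-quartile scaling, DESeq2 size factors, no filter, the Wald test of DESeq2 1.42.0, a replicate block, only the 4 libraries compared, no ribosomal RNA rows, and each library left out in turn.

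The members and lists were chosen with earlier results of these data known. The genes named are every member past the threshold, those with a known role (nas-6, nas-7, nas-36 to nas-39), the 5 highest by mean RPKM, and from each other list up to 4 members past the threshold or the 2 with the smallest p; not all of the last are printed. Other members are given by counts, levels or ranges. Described after their values were seen were nas-3, nas-29, nas-10, nas-21 and nas-22, and the members at the ends of the ranges.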

Additional observations from a re-analysis of the deposited data

How the results depend on the processing

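The counts of called nas genes were small and moved with the processing. For 200 Gy against 0 Gy (2 members) the count was 0 with upper-quartile scaling, 1 with only the 4 libraries compared, 4 with the DESeq2 Wald test, 0 length-corrected and 1 with the default trend, chosen after the data were seen. With the replicate block it was 9 (nas-3, nas-20, nas-29, nas-30, nas-31, nas-33, nas-36 and nas-38 lower, nas-9 higher), and 6 with the block and either length correction. Over all genes the block called 44.7%, and 31.1% and 32.0% with the length corrections. Left-out libraries gave 0 to 4, with 0 of all genes called without either 0 Gy library. For 400 Gy against 0 Gy (0 members) it was 4 with only the 4 libraries compared, 2 with the DESeq2 Wald test, 0 length-corrected and 1 with the default trend. It was 4 with the replicate block, also with either length correction (24.9%, 16.5% and 17.4% of all genes), and 0 to 5 with a library left out, with 0 of all genes called without a 0 Gy or 400 Gy library. For 400 Gy against 200 Gy (2 members) it was 1 with upper-quartile scaling or only the 4 libraries, 0 length-corrected with either trend, 1 with either trend and the block, and 1 to 3 with a library left out. In that comparison the replicate block alone gave 3, and the block called 53.0%, 30.6% and 32.3% of all genes without and with the corrections. The cause of these shifts was not tested. For upper-quartile scaling, the 4-library fits and most fits with a library left out, the share of all genes called is not given here. Those counts of members can therefore not be set against such a share. Replicate numbers are not stated to pair libraries. Same-numbered libraries deviated together (correlations 0.48, 0.37 and 0.60 between the doses), and each comparison has 2 pairs only.

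Of the values of named members under these alternatives, 450 kept direction and side of the threshold, 27 lost and 48 gained a call, and 32 changed sign, all 32 where the value itself had not passed. Of these 32, 2 then passed, both nas-37 for 200 Gy against 0 Gy with the block and a length correction. For 200 Gy against 0 Gy nas-37 became 0.062 with upper-quartile scaling, 0.88 length-corrected (0.88 default), 0.90 with the block as well (0.90 default) and -0.38 to 0.41 with a library left out. There nas-39 became -0.014 with DESeq2 size factors or the Wald test (-0.014), -0.092 without ribosomal RNA rows, -0.029 with 4 libraries and -0.62 to 0.24 with a library left out, nas-11 -0.43 to 0.58 and nas-10 -0.48 to 1.66. For 400 Gy against 0 Gy, left-out libraries gave nas-38 -1.29 to 0.14 and nas-36 -0.90 to 0.043. For 400 Gy against 200 Gy nas-20 became -0.13 with upper-quartile scaling, nas-29 0.052 without ribosomal RNA rows, nas-39 -0.995 length-corrected (-0.97 default) and -0.87 with the block (-0.87 default), and nas-11 -0.46 (-0.50) and -0.36 (-0.40). Left-out libraries gave nas-7 -0.14 to 0.84, nas-29 -1.25 to 0.57 and nas-10 -0.40 to 3.21. With 2 libraries per dose and many members under 1 RPKM, small changes were not detectable at this depth.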
